A study of Homo sapiens with 183 samples.

Results

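ALS2CL, C1orf116, CAVIN3, EMP1, PLCD3, ANO1 and CORO1A are 7 genes of different families that were followed across 183 RNA-seq libraries of 9 human cancer cell lines. They are 7 of the 19875 gene names in the tables. They were chosen by their expression after KLF5 knockout, being among the genes that were lowest against sgRosa in 3 or 4 pancreatic ductal adenocarcinoma lines, so their fall in that first experiment (experiment 1 of T3M-4, BxPC-3, AsPC-1 and SUIT-2) is a description and not a result. What was open to test was how the same genes behaved in later KLF5 knockouts of AsPC-1 (experiment 3), T3M-4 and BxPC-3 (experiment 2), in KLF5 knockout of CFPAC-1, in knockouts of other genes, and after a RUVBL1/2 inhibitor in pancreatic and other cancers.

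All knockout groups were pancreatic cancer lines that carry Cas9, harvested on day 5 after an sgRNA was introduced. The controls, sgRosa, also carried Cas9 and received a control sgRNA named for the Rosa26 locus. The other sgRNA groups were sgKLF5, sgRUVBL1, sgRUVBL2, sgCDK1 and sgRpa3 in AsPC-1, T3M-4, BxPC-3 and CFPAC-1, with sgKLF5 also in SUIT-2, and sgCHD4 and sgSERPINB5 in AsPC-1 alone. AsPC-1 and SUIT-2 represent the classical subtype and T3M-4 and BxPC-3 the basal-like subtype. CB6644 groups had 24 h of this inhibitor of the RUVBL1/2 ATPase or of DMSO, at a dose that the labels do not give. They were AsPC-1 and T3M-4 with an empty vector (EV), with RUVBL1_A62T or with RUVBL2_dF109, 2 variants that confer resistance to the drug, and the parental lines T84 (colorectal cancer), A375 (melanoma), H1048 (small cell lung cancer, tuft cell-like) and RH30 (alveolar rhabdomyosarcoma). The study used independent sgRNAs for KLF5, RUVBL1, RUVBL2 and the control, but the labels do not say which one a library received. Groups are named by their sgRNA label. The study calls the replicates of its KLF5 knockout RNA-seq biological. The labels do not say which libraries are separate cultures, so p-values measure the spread between these libraries, which may in part be technical or between sgRNAs.

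KLF5 is a zinc-finger transcription factor of the Krüppel-like family that binds C-rich and GC-rich DNA and keeps epithelial genes active in gut, skin and pancreatic cancer cells. RUVBL1 and RUVBL2 are AAA+ ATPases that form a ring used by chromatin remodellers and chaperone complexes. The 7 genes act in different places. ALS2CL is a relative of alsin that binds the endosomal GTPase RAB5, and CAVIN3 is a coat protein of caveolae. EMP1 is a 4-pass membrane protein of the PMP22 family, PLCD3 is a phospholipase C of the delta class that cleaves membrane phosphoinositides, and ANO1 is the calcium-activated chloride channel of secretory epithelia. CORO1A is an actin-binding coronin best known from blood cells, and C1orf116, also called SARG, is an androgen-responsive gene whose function is little known.

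In GENCODE v44 (hg38) all 7 genes are protein-coding. ALS2CL lies at chr3:46668995-46693704 (minus strand), C1orf116 at chr1:207018522-207032756 (minus), CAVIN3 at chr11:6318946-6320532 (minus) and EMP1 at chr12:13196723-13219941 (plus). PLCD3 lies at chr17:45108959-45133354 (minus), ANO1 at chr11:69985907-70189530 (plus) and CORO1A at chr16:30182827-30189076 (plus). Because KLF5 binds C-rich DNA, the 250 bases before the transcription start are shown for 4 of them, from RefSeq on GRCh38.p14 and 5′ to 3′ on the gene's own strand. Capitals mark matches to CCNCNCCC or its reverse complement GGGNGNGG, 8-letter patterns that cover the C-rich box of Krüppel-like factors, searched on both strands with overlaps kept. The windows are chr3:46693680-46693929 (ALS2CL), chr1:207032757-207033006 (C1orf116), chr12:13196476-13196725 (EMP1) and chr11:69985657-69985906 (ANO1).
ALS2CL: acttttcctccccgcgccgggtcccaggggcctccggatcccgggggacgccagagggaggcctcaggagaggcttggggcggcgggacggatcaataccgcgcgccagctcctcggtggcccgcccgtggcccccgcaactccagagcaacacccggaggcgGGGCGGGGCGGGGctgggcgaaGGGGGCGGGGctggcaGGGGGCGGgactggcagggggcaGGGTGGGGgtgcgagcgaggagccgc
C1orf116: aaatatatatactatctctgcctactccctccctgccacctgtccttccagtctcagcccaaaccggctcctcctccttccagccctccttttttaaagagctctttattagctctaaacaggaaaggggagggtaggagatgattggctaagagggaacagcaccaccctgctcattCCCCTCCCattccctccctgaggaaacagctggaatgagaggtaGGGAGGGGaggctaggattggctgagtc
EMP1: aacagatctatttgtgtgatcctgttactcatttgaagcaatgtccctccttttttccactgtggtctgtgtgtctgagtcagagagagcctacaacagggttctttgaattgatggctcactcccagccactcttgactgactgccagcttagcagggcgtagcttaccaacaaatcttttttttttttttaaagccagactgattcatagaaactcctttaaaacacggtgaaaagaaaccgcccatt
ANO1: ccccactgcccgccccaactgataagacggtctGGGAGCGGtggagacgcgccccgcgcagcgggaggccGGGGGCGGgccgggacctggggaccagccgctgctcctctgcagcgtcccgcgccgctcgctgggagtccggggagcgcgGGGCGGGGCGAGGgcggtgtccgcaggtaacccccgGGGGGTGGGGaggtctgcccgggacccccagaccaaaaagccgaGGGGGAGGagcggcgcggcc

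The 4 windows span the range among these genes. ALS2CL has 6 matches at 77.6% G+C, ANO1 has 7 matches at 78.0% G+C, C1orf116 has 2 matches at 52.4% G+C and EMP1 has none at 42.4% G+C. Of all 35116 RefSeq windows of this length, 53.39% hold at least 1 match, so a match is common, and it describes the sequence and not a site of binding. The RefSeq windows of PLCD3 and CORO1A, with 6 and 2 matches, lie wholly inside the gene spans above and are not printed (those of ALS2CL and EMP1 overlap the ends of theirs), and no window was found for CAVIN3.

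The values are transcripts per 1000000 transcripts (TPM), a share, and depth cannot be read from them. Between 11292 and 14024 genes reached 1 TPM per library. Epithelial markers (EPCAM, CDH1, KRT8, KRT18, KRT19) were all at 1 TPM or more in the pancreatic lines, T84 and H1048, and melanocyte, muscle, tuft and intestinal markers were present in A375, RH30, H1048 and T84. KLF5 mRNA cannot serve as a check of the sgKLF5 labels, since small insertions or deletions need not lower mRNA. It differed from sgRosa by 0.10 (adjusted p = 0.446) on the log2 scale in AsPC-1, 0.78 (adjusted p = 1.73e-05) in T3M-4, 0.11 (adjusted p = 0.356) in BxPC-3 and -0.41 (adjusted p = 0.00852) in CFPAC-1. RUVBL1 and RUVBL2 mRNA fell in their own knockouts in every line, with log2 fold changes of -1.14 to -1.87 and of -1.24 to -1.76, and SERPINB5 mRNA fell in its own, while CHD4 mRNA was 0.28 higher in the libraries labelled sgCHD4. CDK1 mRNA differed by -0.10 (adjusted p = 0.678) in the CFPAC-1 libraries labelled sgCDK1 and by -0.19 (adjusted p = 0.202) in those of AsPC-1, and fell by 1.47 in T3M-4 and 0.61 in BxPC-3. RPA3 mRNA was between -0.26 and -0.50 with sgRpa3 and passed the test in T3M-4 and BxPC-3 alone.

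Some libraries stood apart from their own group, and the values that they change most are given without them too. The sgRosa replicate 2 of CFPAC-1 had the lowest TPM of its 4 libraries for all 7 genes, with KLF5 at 193 TPM against 169 to 205 in the others. The sgRosa replicate 4 of T3M-4 experiment 2 was the lowest of 4 for 6 of the 7 genes, with KLF5 at 262 TPM against 329 to 399.8. In experiment 1, the sgKLF5 replicate 2 of T3M-4 and the sgRosa replicate 1 of SUIT-2 were the lowest for 5 of the 7 genes, and their KLF5 was 92.1 and 118 TPM against 334 to 482 and 241 to 292 in the other libraries of their groups. The sgRUVBL2 replicate 3 of BxPC-3 and replicate 2 of AsPC-1 were also the lowest for 5 of the 7 genes.

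In experiment 1, which chose the genes, ALS2CL, C1orf116, CAVIN3, EMP1 and PLCD3 were among the 250 lowest genes (ranked by the limma p of the genes that were lower) in all 4 lines, and ANO1 and CORO1A in 3 of 4. ALS2CL held rank 10 in BxPC-3, where it was at 101 and 98.5 TPM with sgRosa and at 19.2, 14.9, 15.2 and 16.0 TPM with sgKLF5, a log2 difference of -2.55. The sgKLF5 libraries were all far below both controls. Just inside the limit of 250 stood EMP1 of T3M-4 at rank 246 (log2 difference -2.75) and CAVIN3 of T3M-4 at rank 230 (-1.16). Outside it stood ANO1 of AsPC-1 at rank 1371 (-0.40) and CORO1A of SUIT-2 at rank 3063 (-0.04). Over the 7 genes the log2 differences ran from -1.16 to -2.77 in T3M-4, from -1.70 to -3.02 in BxPC-3, from -0.40 to -2.78 in AsPC-1 and from -0.04 to -1.80 in SUIT-2. Without sgRosa replicate 1 of SUIT-2 the ALS2CL difference there was -2.31 and that of ANO1 -2.05, and without sgKLF5 replicate 2 of T3M-4 the EMP1 difference was -2.20 and that of ANO1 -2.34. ANO1 was at 105 and 84.4 TPM in the sgRosa libraries of AsPC-1 and ran from 56.0 to 85.0 TPM with a median of 72.9 TPM in the 6 sgKLF5 libraries. The ranges overlapped at the top of the knockout group. CORO1A in SUIT-2 was at 3.37, 4.38, 3.01 and 1.80 TPM with sgRosa and 4.23, 2.17, 2.37 and 3.19 TPM with sgKLF5, with overlap across most of both ranges. SUIT-2 was knocked out in this experiment alone and so has no independent test. Its ALS2CL was at 15.2, 50.3, 70.1 and 78.0 TPM with sgRosa and 13.6, 7.61, 16.3 and 13.6 TPM with sgKLF5, and its ANO1 at 11.2, 42.0, 51.6 and 62.1 and 11.2, 6.66, 15.1 and 16.0 TPM. In both genes the sgRosa replicate 1 alone lay within the range of the knockout libraries.

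In the knockouts not used for the choice, the 7 genes were lower again in most lines. At an adjusted p under 0.05 (limma on log2(TPM + 1), Benjamini-Hochberg over all genes tested), 7 of 7 fell in AsPC-1 experiment 3, 7 of 7 in T3M-4 experiment 2, 6 of 7 in BxPC-3 experiment 2 and 5 of 7 in CFPAC-1, and none rose. Of all genes tested, 12.3%, 11.2%, 13.6% and 13% fell in these 4 comparisons. The median log2 fold change of the 7 genes was -1.02, -1.39, -1.01 and -0.85, against 0.02, 0.10, 0.05 and -0.11 over all genes tested. The 3 lines AsPC-1, T3M-4 and BxPC-3 are the same as in experiment 1, in separate libraries, and only CFPAC-1 is a line that the choice did not use. In bulk RNA, fewer cells that express a gene and less RNA per cell cannot be told apart.

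**Figure D1:**
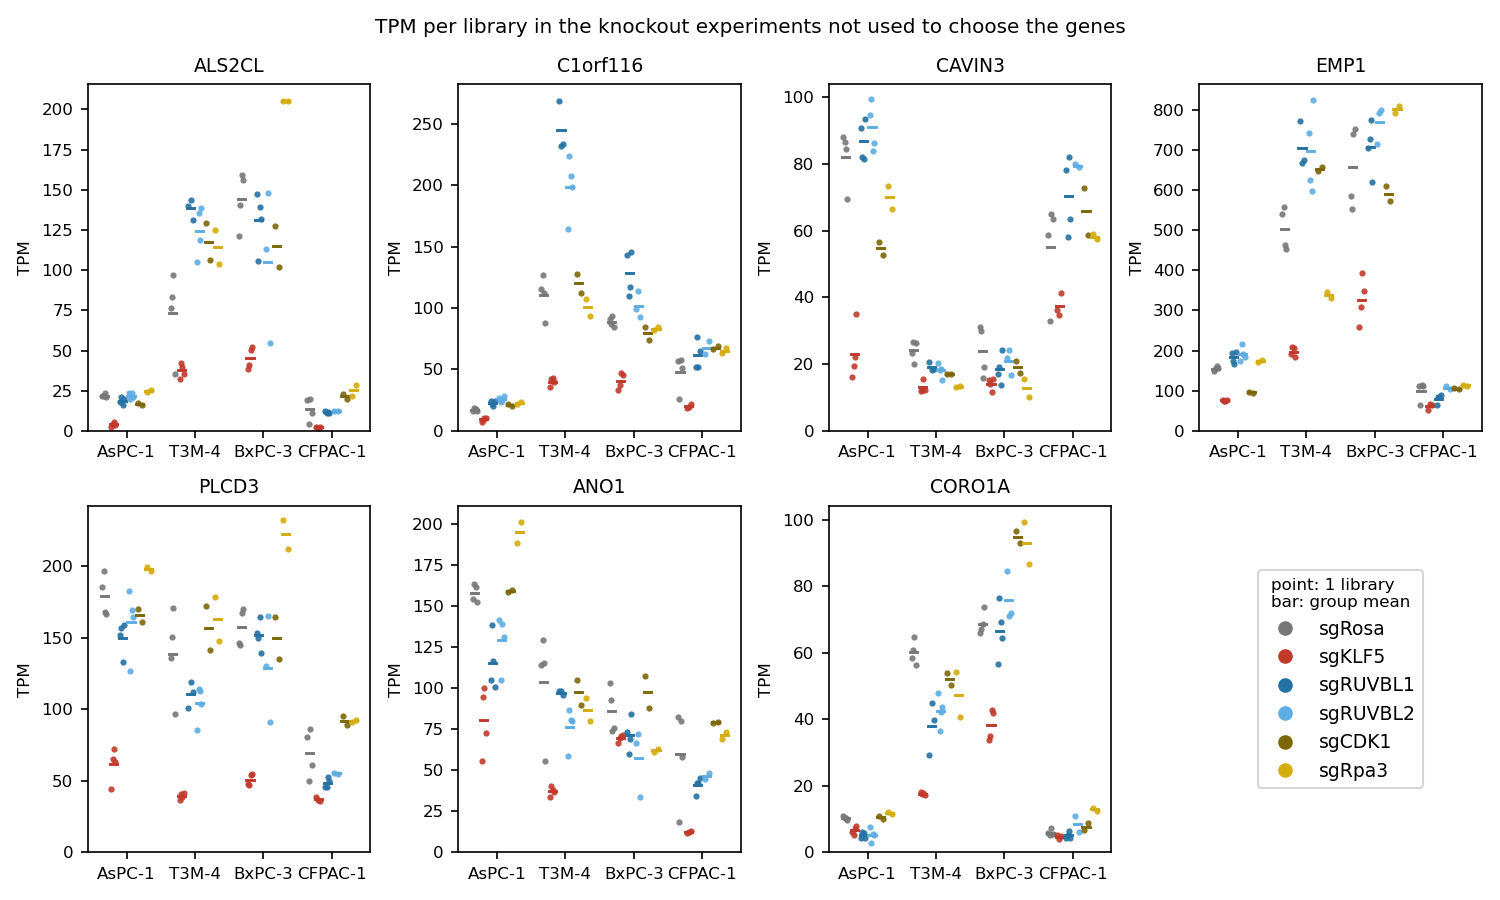
TPM (vertical axes) of each gene in each library (points) and the group means (bars) for sgRosa, sgKLF5, sgRUVBL1, sgRUVBL2, sgCDK1 and sgRpa3 in AsPC-1 experiment 3, T3M-4 experiment 2, BxPC-3 experiment 2 and CFPAC-1. The sgKLF5 means (red) are below the sgRosa means (grey) in every panel and line, while sgRUVBL1 and sgRUVBL2 lie above sgRosa for ALS2CL, C1orf116 and EMP1 in T3M-4.

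ALS2CL, the RAB5-binding relative of alsin, showed the largest fall of the 7 genes in AsPC-1. It was at 21.5, 21.5, 23.9 and 21.0 TPM in the 4 sgRosa libraries and at 2.59, 4.31, 5.84 and 3.55 TPM in the 4 sgKLF5 libraries, with every knockout library far below every control. The log2 fold change was -2.22 ± 0.14 (SE, adjusted p = 6.82e-10). In CFPAC-1 the sgRosa values were 19.2, 4.34, 19.6 and 11.2 TPM and the 3 sgKLF5 values 2.69, 1.74 and 2.55 TPM. The groups did not overlap, although sgRosa replicate 2 came close to the knockouts. The log2 fold change was -1.96 ± 0.32 (SE, adjusted p = 0.00338), and -2.38 (adjusted p = 7.21e-08) without that replicate. In BxPC-3 it went from 121, 140.2, 159 and 156 TPM to 38.3, 41.1, 50.5 and 52.5 TPM, a log2 fold change of -1.64 ± 0.21 (SE, adjusted p = 9.51e-06), again without overlap. T3M-4 differed, since sgRosa replicate 4 was as low as the knockouts: the sgRosa values were 76.3, 83.6, 96.9 and 35.4 TPM and the sgKLF5 values 32.2, 42.5, 39.8 and 35.7 TPM. The log2 fold change there was -0.86 ± 0.21 (SE, adjusted p = 0.00412) with all libraries and -1.17 (adjusted p = 1.6e-07) without that replicate.

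C1orf116, the androgen-responsive gene of little known function, fell in all 4 lines with no overlap in any of them. In T3M-4 it was at 115.8, 127, 112 and 88.1 TPM with sgRosa and at 35.7, 42.0, 42.9 and 39.6 TPM with sgKLF5 (log2 fold change -1.43 ± 0.11 SE, adjusted p = 1.15e-08). In BxPC-3 it was at 91.0, 86.8, 93.5 and 84.3 TPM and 33.0, 37.6, 47.3 and 45.1 TPM (-1.12 ± 0.11 SE, adjusted p = 5.32e-07). In neither line did a knockout library come near the lowest control. In CFPAC-1 it was at 56.5, 26.4, 57.4 and 51.2 TPM and 18.8, 19.8 and 21.9 TPM (-1.15 ± 0.20 SE, adjusted p = 0.00396), with sgRosa replicate 2 nearest to the knockouts. AsPC-1 started from a lower level, 16.0, 18.4, 18.2 and 16.5 TPM, and reached 7.55, 9.05, 10.3 and 10.7 TPM (-0.82 ± 0.10 SE, adjusted p = 2.97e-06).

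CAVIN3, the caveolar coat protein, fell in T3M-4, BxPC-3 and AsPC-1. In AsPC-1 it went from 88.1, 86.7, 84.6 and 69.4 TPM to 16.2, 19.3, 22.1 and 35.0 TPM (-1.83 ± 0.15 SE, adjusted p = 2.07e-08), with sgKLF5 replicate 4 the highest of the knockouts and still far below the controls. In T3M-4 it went from 23.3, 26.5, 20.2 and 26.4 TPM to 12.0, 12.3, 15.7 and 12.3 TPM (-0.84 ± 0.11 SE, adjusted p = 7.56e-06), also without overlap. In BxPC-3 the sgRosa libraries were split, at 31.3 and 30.0 TPM in replicates 1 and 2 and 15.8 and 19.2 TPM in replicates 3 and 4. Whether this split follows the sgRNA cannot be read from the labels. The lowest of them nearly met the sgKLF5 libraries at 15.1, 14.2, 11.6 and 15.7 TPM (-0.68 ± 0.20 SE, adjusted p = 0.0147). This call was lost without sgRosa replicate 1 or 2 (adjusted p = 0.0538 to 0.0542). In CFPAC-1 it did not pass the test: the values were 58.7, 32.9, 64.9 and 63.6 TPM with sgRosa and 36.2, 34.8 and 41.4 TPM with sgKLF5, and sgRosa replicate 2 lay below all the knockout libraries. The log2 fold change was -0.50 ± 0.18 (SE, adjusted p = 0.0721), and -0.72 (adjusted p = 0.000355) without that replicate.

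EMP1, the 4-pass membrane protein, was the most abundant of the 7 genes in the basal-like lines. In BxPC-3 it was at 586, 553, 740.4 and 753 TPM with sgRosa and 258, 308, 393 and 349 TPM with sgKLF5 (-1.01 ± 0.12 SE, adjusted p = 2.99e-06). In T3M-4 it was at 541, 558, 463 and 453 TPM and 191, 208, 206 and 185 TPM (-1.34 ± 0.09 SE, adjusted p = 3.8e-09). Both pairs of groups were fully apart. In AsPC-1 the replicates were close together, 149, 154, 162 and 156 TPM with sgRosa and 76.7, 75.7, 75.1 and 76.6 TPM with sgKLF5, a log2 fold change of -1.02 ± 0.06 (SE, adjusted p = 6.41e-10). In CFPAC-1 it was at 112, 64.6, 114 and 112 TPM and 52.6, 66.0 and 64.3 TPM (-0.68 ± 0.16 SE, adjusted p = 0.0118), where sgRosa replicate 2 lay among the knockouts and the other controls far above them. The call in CFPAC-1 was lost without sgKLF5 replicate 1 (adjusted p = 0.0657).

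PLCD3, the phosphoinositide-cleaving phospholipase, fell without overlap in every one of the 4 lines. It went from 186, 197, 168 and 167 TPM to 44.5, 65.5, 72.5 and 63.3 TPM in AsPC-1 (-1.55 ± 0.12 SE, adjusted p = 1.24e-08). In T3M-4 it went from 136, 150.2, 171 and 96.7 TPM to 36.3, 40.5, 39.0 and 41.5 TPM (-1.76 ± 0.14 SE, adjusted p = 1.56e-08). The lowest control library of either line was well above its highest knockout library. BxPC-3 ranged from 145 to 170.4 TPM with sgRosa and from 47.0 to 54.8 TPM with sgKLF5 (-1.61 ± 0.13 SE, adjusted p = 3.84e-08). CFPAC-1 ranged from 49.8 to 86.3 TPM with sgRosa and from 35.9 to 38.7 TPM with sgKLF5 (-0.85 ± 0.13 SE, adjusted p = 0.00338).

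ANO1, the calcium-activated chloride channel, fell in 3 of the 4 lines. In AsPC-1 it was at 154, 163, 161 and 152 TPM with sgRosa and 55.9, 94.6, 99.8 and 72.5 TPM with sgKLF5 (-0.99 ± 0.14 SE, adjusted p = 1.96e-05), with no overlap, in the line where experiment 1 had shown a log2 difference of only -0.40. In CFPAC-1 it was at 82.1, 18.8, 80.0 and 58.2 TPM and 12.0, 12.5 and 12.9 TPM (-1.98 ± 0.33 SE, adjusted p = 0.00338), with sgRosa replicate 2 close to the knockouts. In T3M-4 it was at 114, 129, 115 and 55.9 TPM and 33.7, 40.2, 38.1 and 36.9 TPM (-1.39 ± 0.19 SE, adjusted p = 1.58e-05). BxPC-3 differed between its 2 experiments. In experiment 2 the sgRosa libraries were at 103, 92.7, 73.7 and 75.5 TPM and the sgKLF5 libraries at 66.8, 69.5, 70.8 and 71.3 TPM, which just failed to overlap and did not pass the test (-0.29 ± 0.17 SE, adjusted p = 0.209, and -0.34, adjusted p = 0.0488, after median-of-ratios scaling). In experiment 1 of the same line the sgRosa libraries were at 183 and 178 TPM and the sgKLF5 libraries at 27.8, 21.3, 18.8 and 18.9 TPM, so both the control and the knockout levels differed between the experiments, which were not tested against each other.

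CORO1A, the actin-binding coronin of blood cells, fell most in T3M-4, from 58.5, 60.7, 64.9 and 56.2 TPM with sgRosa to 18.0, 17.6, 17.8 and 17.3 TPM with sgKLF5 (-1.71 ± 0.11 SE, adjusted p = 2.42e-09). In BxPC-3 it went from 65.8, 67.1, 68.5 and 73.6 TPM to 33.9, 34.9, 42.7 and 41.8 TPM (-0.83 ± 0.10 SE, adjusted p = 3.12e-06). In experiment 2 both basal-like lines had levels above 50 TPM in every sgRosa library and no overlap. In AsPC-1 the values were 10.9, 10.2, 10.2 and 9.60 TPM and 6.23, 5.29, 7.17 and 7.86 TPM (-0.57 ± 0.18 SE, adjusted p = 0.024) and did not overlap. The call in AsPC-1 was lost without sgKLF5 replicate 1 or 2 or sgRosa replicate 1 or 2 (adjusted p = 0.0516 to 0.0756). In CFPAC-1 the values were 5.75, 5.15, 7.33 and 5.49 TPM and 5.32, 3.95 and 4.79 TPM, overlapped and did not pass (-0.28 ± 0.18 SE, adjusted p = 0.293). Blood cells were looked for with 7 markers, of which 2 to 4 reached 1 TPM in at least 1 library of these groups, with CD3E below 1 TPM. PTPRC was at 5.30 to 8.90 TPM with sgRosa and 5.32 to 6.46 TPM with sgKLF5 in T3M-4. In BxPC-3 it was at 0.979 to 2.73 and 1.38 to 2.38 TPM. The summed level of the 7 markers was 12.1 to 14.8 TPM with sgRosa and 9.53 to 11.3 TPM with sgKLF5 in T3M-4, and 4.42 to 6.03 and 5.19 to 8.03 TPM in BxPC-3, below the level of CORO1A itself. It was 5.49 to 6.87 and 5.48 to 6.98 TPM in AsPC-1 and 5.77 to 8.25 and 4.85 to 6.30 TPM in CFPAC-1, and its part in the CORO1A values of these lines was not tested.

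**Figure D2:**
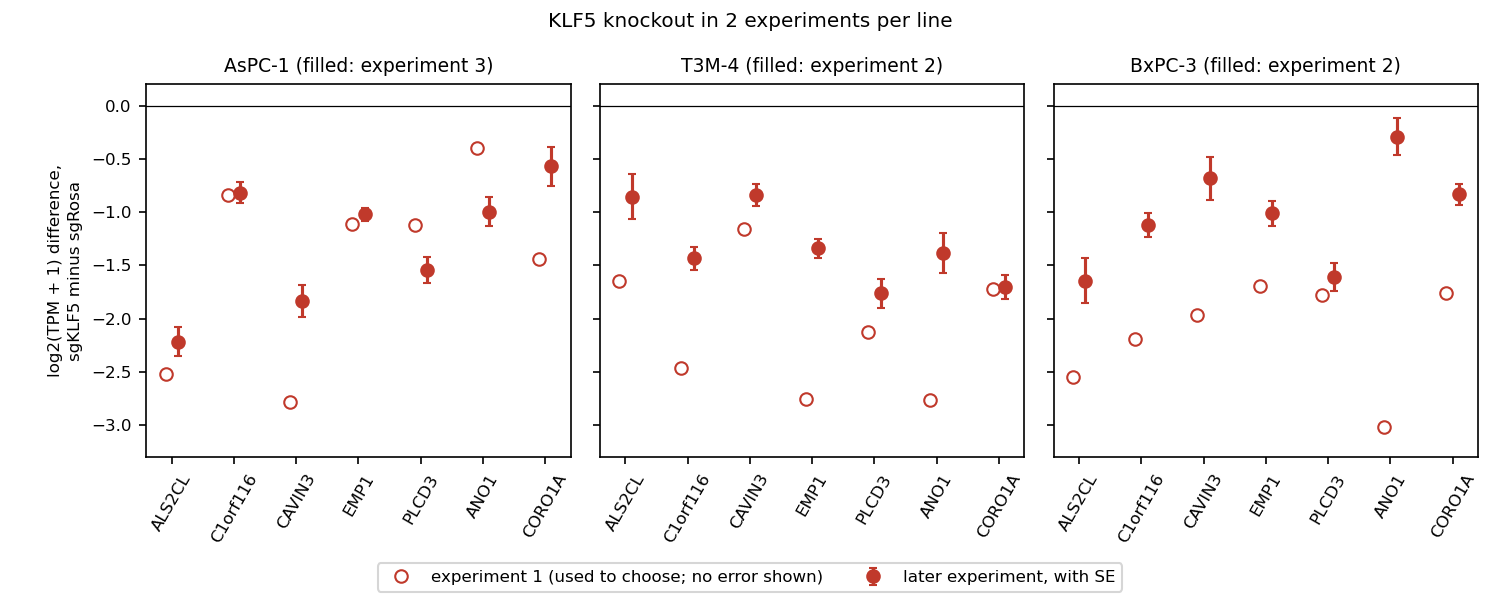
Log2 difference between sgKLF5 and sgRosa (vertical axis, on log2(TPM + 1)) for each gene in the experiment that chose the genes (open points) and in the later experiment (filled points, bars of 1 standard error) in T3M-4, BxPC-3 and AsPC-1. All filled points lie below 0, and ANO1 in BxPC-3 lies nearest to it, at -0.29 against -3.02 in experiment 1.

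Without the 2 control libraries that stood apart, T3M-4 had 7 of 7 genes lower (sgRosa replicate 4 left out, 13.5% of all genes lower) and CFPAC-1 had 6 of 7 lower (sgRosa replicate 2 left out, 14.9%), with CORO1A at -0.34 (adjusted p = 0.227) as the exception. Both libraries were the lowest of their group for most of these genes, so leaving them out by itself widens most of the falls. These counts are therefore a description. Over all genes, the CFPAC-1 library correlated with the mean of its group at r = 0.983, against 0.989 for sgRosa replicate 4.

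The sgKLF5 libraries were also compared with the mean of sgCDK1 and sgRpa3. These target a cell cycle kinase and a subunit of the replication protein RPA that cells need. Viability was not measured, and whether its loss moved the genes was not tested. The genes were chosen as low after KLF5 knockout, so a lower level with sgKLF5 was likely in advance. The 7 genes were lower in sgKLF5 for 7 of 7 in AsPC-1 (19.1% of all genes), 6 of 7 in T3M-4 (15.3%), 5 of 7 in BxPC-3 (19.7%) and 7 of 7 in CFPAC-1 (34%). The largest of these differences was that of ALS2CL in CFPAC-1, -2.88 ± 0.32 (SE, adjusted p = 1.05e-05). The exceptions were CAVIN3 in T3M-4 at -0.20 (adjusted p = 0.182), and CAVIN3 and ANO1 in BxPC-3 at -0.13 (adjusted p = 0.619) and -0.16 (adjusted p = 0.474). CAVIN3 in CFPAC-1 was -0.71 (adjusted p = 0.00519) and lost its call after median-of-ratios scaling, -0.50 (adjusted p = 0.0548).

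Against sgRosa, sgCDK1 and sgRpa3 moved single genes in both directions, with 2 libraries in each of these groups. After sgCDK1, 2 of 7 fell in AsPC-1 (16.7% of all genes changed), namely CAVIN3 at -0.57 (adjusted p = 0.0386) and EMP1 at -0.69 (adjusted p = 7.67e-06). The CAVIN3 call was lost without sgCDK1 replicate 1 or 2 or sgRosa replicate 1, 2 or 3 (adjusted p = 0.0687 to 0.235). In T3M-4, 3 of 7 changed (16.8%): CAVIN3 at -0.46 (adjusted p = 0.0219), ALS2CL at 0.77 (adjusted p = 0.0496) and EMP1 at 0.38 (adjusted p = 0.0318). The median of all genes was 0.15 there, and after median-of-ratios scaling ALS2CL was at 0.60 (adjusted p = 0.0503) and EMP1 at 0.21 (adjusted p = 0.285). Without sgRosa replicate 4, ALS2CL was at 0.46 (adjusted p = 0.0277) and EMP1 at 0.33 (adjusted p = 0.0554). Leaving out either sgCDK1 library ended all 3 calls, with adjusted p from 0.112 to 0.281. In BxPC-3 CORO1A alone rose (5.82%), at 0.46 (adjusted p = 0.0254), a call lost without sgCDK1 replicate 1 or 2 or sgRosa replicate 1 or 3 (adjusted p = 0.0517 to 0.208). In CFPAC-1 limma called 0 of 7 genes (0% of all genes), with 3 of 7 at an unadjusted p under 0.05.

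After sgRpa3, limma called 0 of 7 in AsPC-1 (0.654% of all genes changed), with 2 of 7 at an unadjusted p under 0.05. In T3M-4, 3 of 7 changed (24.6%): CAVIN3 at -0.81 (adjusted p = 0.00037), EMP1 at -0.57 (adjusted p = 0.00197) and ALS2CL at 0.73 (adjusted p = 0.0469), the last lost without sgRosa replicate 1 or sgRpa3 replicate 1 or 2 (adjusted p = 0.0583 to 0.241). The median of all genes was 0.15 there, and with median-of-ratios scaling 4 were lower and 0 higher. Without sgRosa replicate 4, ANO1 went from -0.19 (adjusted p = 0.555) to -0.46 (adjusted p = 0.0143) and ALS2CL was at 0.42 (adjusted p = 0.0304), with 3 lower and 1 higher (23.8% of all genes changed). The omitted control was the lowest of its group for most of the 7 genes, so these values are a description. In BxPC-3, 3 of 7 changed (20.8%): CAVIN3 at -0.83 (adjusted p = 0.025), PLCD3 at 0.50 (adjusted p = 0.0313) and CORO1A at 0.43 (adjusted p = 0.0147), and scaling made this 2 lower and 2 higher. The CAVIN3 call was lost without sgRosa replicate 1 or 2 or sgRpa3 replicate 2 (adjusted p = 0.0718 to 0.312), that of PLCD3 without sgRosa replicate 1 or 2 or sgRpa3 replicate 1 or 2 (adjusted p = 0.0749 to 0.234), and that of CORO1A without sgRpa3 replicate 1 (adjusted p = 0.21). In CFPAC-1 CORO1A alone rose (11.6%), from 5.75, 5.15, 7.33 and 5.49 TPM to 13.4 and 12.4 TPM (1.01 ± 0.21 SE, adjusted p = 0.00598). The groups did not overlap, and the call was lost without sgRpa3 replicate 1 or 2 (adjusted p = 0.0684 to 0.0815), while leaving out sgRosa replicate 1 or 3 gave 3 calls of 7. Of the 8 comparisons of libraries labelled sgCDK1 or sgRpa3, in 4 of which the mRNA of the target did not pass as lower, CAVIN3 fell in 4 and EMP1 fell in 2 and rose in 1. All knockouts of a line share its sgRosa libraries.

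RUVBL1 and RUVBL2 were knocked out to ask how far their loss resembles that of KLF5. The 7 genes did not fall as a group. After sgRUVBL1, 2 fell and 2 rose in AsPC-1 experiment 3 (51.9% of all genes changed), 2 fell and 2 rose in AsPC-1 experiment 2 (55.8%), 2 fell and 3 rose in T3M-4 (60.5%), 1 rose in BxPC-3 (16%) and 1 fell in CFPAC-1 (43.8%). After sgRUVBL2, 1 fell and 2 rose in AsPC-1 (43.2%), 3 fell and 3 rose in T3M-4 (54.5%), 1 fell in BxPC-3 (9.76%), and limma called 0 of 7 in CFPAC-1 (12.1%), with 2 of 7 at an unadjusted p under 0.05. In AsPC-1 and BxPC-3 these counts lay near the share of all genes that changed, in CFPAC-1 below it with all libraries and in T3M-4 above it. The all-gene median change, on the log2 scale, was 0.16 in AsPC-1 experiment 3, 0.25 in T3M-4 and -0.20 in CFPAC-1 after sgRUVBL1, and 0.13 in AsPC-1 and 0.19 in T3M-4 after sgRUVBL2. Median-of-ratios scaling removes this shift, and with it the counts became 4 lower and 0 higher in AsPC-1 experiment 3, 4 and 1 in AsPC-1 experiment 2, 3 and 2 in T3M-4, and 0 and 2 in CFPAC-1 after sgRUVBL1, and 3 and 1 in AsPC-1 and 4 and 2 in T3M-4 after sgRUVBL2.

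C1orf116 rose after RUVBL1 loss in T3M-4, BxPC-3 and AsPC-1, and fell after KLF5 loss in the same lines. In T3M-4 the sgRUVBL1 libraries were at 233, 269 and 232 TPM and the sgRUVBL2 libraries at 164, 224, 207 and 199 TPM, all above the 88.1 to 127 TPM of sgRosa. The log2 fold changes were 1.15 ± 0.12 (SE, adjusted p = 5.01e-07) and 0.84 ± 0.11 (SE, adjusted p = 6.19e-06). In BxPC-3 the sgRUVBL1 libraries were at 145, 143, 109.9 and 117 TPM (0.52 ± 0.11 SE, adjusted p = 0.00419), also above all controls. In AsPC-1 experiment 2 they were at 14.9, 15.8, 16.6 and 16.7 TPM against 9.18, 9.71, 10.4 and 10.2 TPM (0.64 ± 0.10 SE, adjusted p = 5.75e-05), and in experiment 3 the rise was 0.37 (adjusted p = 0.00449), or 0.19 (adjusted p = 0.0511) after median-of-ratios scaling. After sgRUVBL2 it rose in AsPC-1 by 0.56 (adjusted p = 0.000217), and in CFPAC-1 and, after sgRUVBL2, in BxPC-3 it did not pass the test. After median-of-ratios scaling it passed in CFPAC-1 after sgRUVBL1, at 0.61 (adjusted p = 0.016), and not after sgRUVBL2, at 0.65 (adjusted p = 0.0698). Unscaled and without sgRosa replicate 2 of CFPAC-1, it was at 0.14 (adjusted p = 0.361) after sgRUVBL1.

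ALS2CL rose in T3M-4, to 131, 140.0 and 144 TPM after sgRUVBL1 and 105, 136, 119 and 138 TPM after sgRUVBL2 (1.00, adjusted p = 0.00116, and 0.84, adjusted p = 0.00267). Every one of these libraries was above the highest sgRosa library. Without the low sgRosa replicate 4 the changes were 0.69 (adjusted p = 9.33e-05) and 0.53 (adjusted p = 0.00064). Scaled by the median of ratios, its changes were 0.71 (adjusted p = 0.00259) and 0.63 (adjusted p = 0.00391). EMP1 rose by 0.49 (adjusted p = 0.000543) and 0.46 (adjusted p = 0.000498) in T3M-4 and by 0.23 (adjusted p = 0.00454) and 0.30 (adjusted p = 0.00101) in AsPC-1 experiment 3, and all of these calls were lost after that scaling. In AsPC-1 experiment 2 EMP1 was at -0.16 (adjusted p = 0.0507) after sgRUVBL1, a change of the other sign that did not pass the test. After median-of-ratios scaling this fall did pass, at -0.20 (adjusted p = 0.0037).

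CORO1A fell after RUVBL1 and RUVBL2 loss in AsPC-1 and T3M-4. In AsPC-1 experiment 3 the sgRUVBL1 libraries were at 4.29, 4.42, 6.04 and 5.76 TPM and the sgRUVBL2 libraries at 7.70, 2.79, 5.58 and 5.10 TPM, all below the 9.60 to 10.9 TPM of sgRosa (-0.89, adjusted p = 0.000522, and -0.90, adjusted p = 0.000686). In T3M-4 they were at 39.8, 29.1 and 44.9 TPM and 47.8, 36.4, 42.2 and 43.7 TPM (-0.67, adjusted p = 0.000197, and -0.49, adjusted p = 0.00153). In AsPC-1 experiment 2 it went from 18.9, 17.9, 13.8 and 18.0 TPM to 10.2, 9.96, 10.2 and 11.0 TPM (-0.67, adjusted p = 0.000178). In each of these the knockout libraries lay below every control, and the falls kept their direction and call after median-of-ratios scaling. The blood marker sum was 5.49 to 6.87 TPM with sgRosa, 9.95 to 11.2 TPM with sgRUVBL1 and 5.94 to 12.8 TPM with sgRUVBL2 in AsPC-1 experiment 3, where only sgRUVBL1 stood clear of the controls. In T3M-4 it was 12.1 to 14.8, 22.3 to 26.7 and 16.6 to 23.4 TPM, and in AsPC-1 experiment 2 4.87 to 7.08 TPM with sgRosa and 5.70 to 7.38 TPM with sgRUVBL1, which overlapped. ANO1 fell after sgRUVBL1 in AsPC-1, from 119.9, 112, 133 and 126 TPM to 69.3, 79.4, 75.6 and 74.2 TPM in experiment 2 (-0.71, adjusted p = 3.65e-05) and from 152 to 163 TPM to 100.4, 105, 138 and 117 TPM in experiment 3 (-0.46, adjusted p = 0.00971). Neither experiment had overlap, and in T3M-4 ANO1 did not pass the test with all libraries, at -0.02 (adjusted p = 0.932), but did without sgRosa replicate 4, at -0.29 (adjusted p = 0.0348), as did PLCD3, from -0.29 (adjusted p = 0.0955) to -0.45 (adjusted p = 0.00236). After sgRUVBL2 in T3M-4 ANO1 was at -0.38 (adjusted p = 0.0931) and at -0.65 (adjusted p = 5.78e-05) without that sgRosa replicate. The omitted control was the lowest of its group for ANO1 and PLCD3, so leaving it out by itself moves both lower. The values without it are a description. Without sgRUVBL2 replicate 2 of AsPC-1 the CORO1A fall there was -0.67 (adjusted p = 0.000968).

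The remaining calls were smaller. CAVIN3 fell in T3M-4 after sgRUVBL1 and sgRUVBL2 (-0.31, adjusted p = 0.0257, and -0.39, adjusted p = 0.00472) and was 0.19 (adjusted p = 0.0435) in AsPC-1 experiment 2, a rise lost after scaling and without sgRUVBL1 replicate 1 or 4 or sgRosa replicate 1 or 3 (adjusted p = 0.051 to 0.152). The CAVIN3 call after sgRUVBL1 in T3M-4 was lost without sgRUVBL1 replicate 1 or 3 or sgRosa replicate 2 or 4 (adjusted p = 0.0584 to 0.0836). PLCD3 fell after sgRUVBL2 in T3M-4 (-0.38, adjusted p = 0.0244), a call lost without sgRUVBL2 replicate 1 or sgRosa replicate 2 or 3 (adjusted p = 0.0674 to 0.0895), and after sgRUVBL1 in CFPAC-1 (-0.48, adjusted p = 0.00564, and -0.26, adjusted p = 0.11, after scaling). In CFPAC-1 without sgRosa replicate 2, 4 of 7 genes were lower after sgRUVBL1 (34.2% of all genes lower, 40.6% changed). After sgRUVBL2, 2 of 7 were lower (7.2% lower, 9.84% changed). Without sgRosa replicate 3 or 4 or sgRUVBL1 replicate 2 the count after sgRUVBL1 was 2. In T3M-4 without sgRosa replicate 4, 3 fell and 3 rose after sgRUVBL1 (57.9% of all genes changed) and 4 fell and 3 rose after sgRUVBL2 (52.6%). Both omitted controls were the lowest of their group for most of the 7 genes. Leaving them out by itself moves those genes lower, so the counts without them are a description. ANO1 after sgRUVBL2 in BxPC-3 was at 66.3, 72.2 and 34.0 TPM, with replicate 3 far below the others, and its fall of -0.63 (adjusted p = 0.0407) was lost without sgRUVBL2 replicate 3 or sgRosa replicate 1 or 2 (adjusted p = 0.099 to 0.165). Without sgRUVBL2 replicate 2 the count there was 3 of 7.

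Compared directly, the genes were higher after RUVBL1 knockout than after KLF5 knockout. This held for 6 of 7 genes in AsPC-1 experiment 3 (39.1% of all genes), 7 of 7 in T3M-4 (30.5%), 5 of 7 in BxPC-3 (18.8%) and 5 of 7 in CFPAC-1 (10.3%), and none was lower. The genes were chosen as low after KLF5 knockout in experiment 1, so this direction was likely in advance. The counts alone do not show how far the loss of RUVBL1 resembles that of KLF5. In CFPAC-1 the call of PLCD3 at 0.37 (adjusted p = 0.0463) was lost when any 1 of 7 libraries of the 2 groups was left out, with adjusted p from 0.0524 to 0.131. C1orf116 in T3M-4 differed most, by 2.58 ± 0.12 (SE, adjusted p = 3.3e-11). ALS2CL differed by 1.99 (adjusted p = 1.15e-09) in AsPC-1, 1.86 (adjusted p = 4.12e-06) in T3M-4, 1.5 (adjusted p = 1.59e-05) in BxPC-3 and 1.93 (adjusted p = 0.000431) in CFPAC-1. CORO1A in AsPC-1 was the gene that leaned the other way, -0.32 (adjusted p = 0.14), and it passed the test as lower after median-of-ratios scaling, -0.46 (adjusted p = 0.0376).

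**Figure D3:**
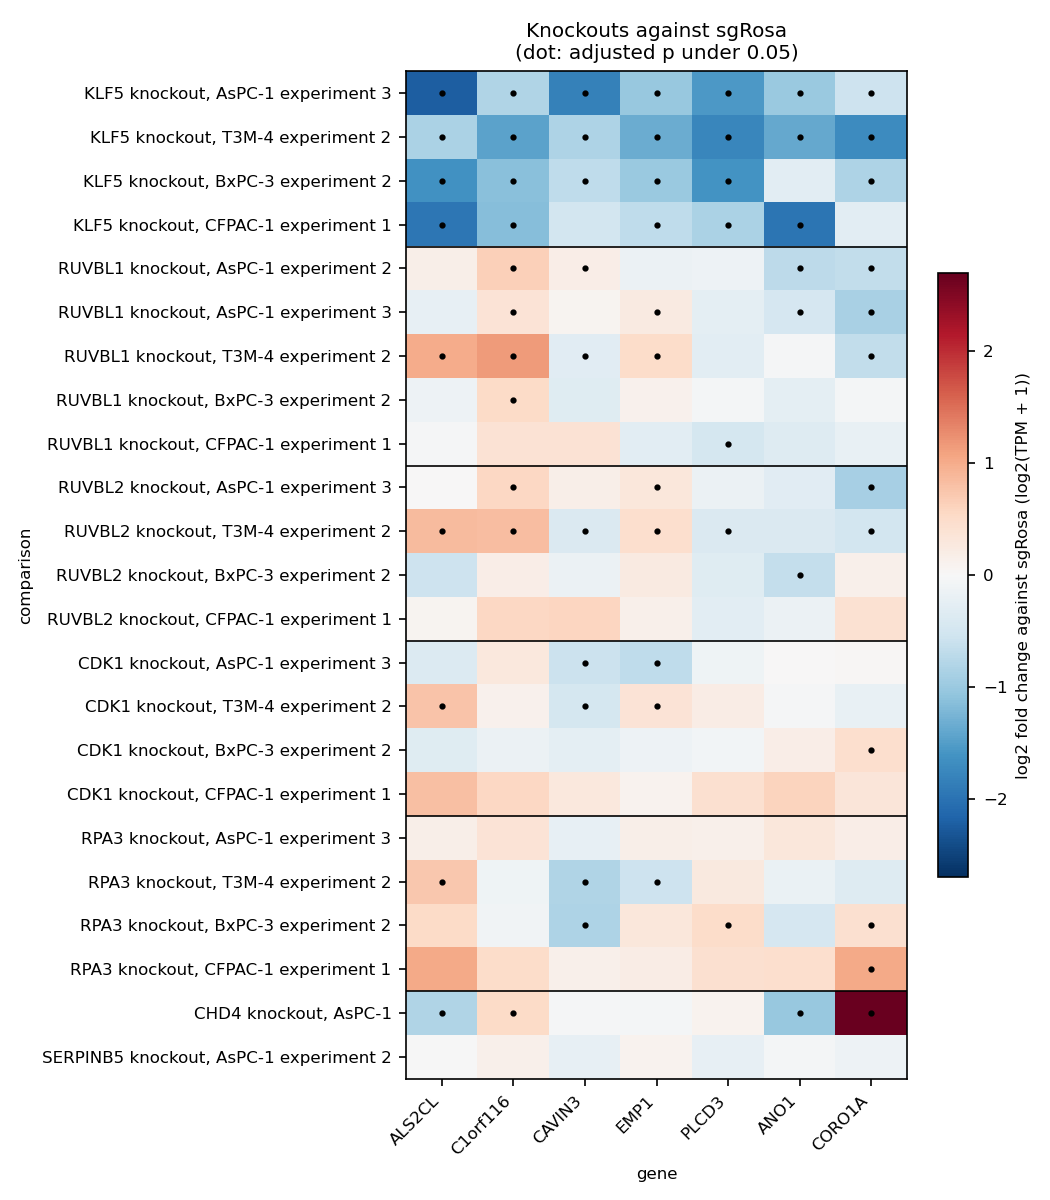
Log2 fold change against sgRosa (colour, on log2(TPM + 1), blue lower and red higher) of the 7 genes (columns) in the knockout comparisons not used to choose them, named at the left. Dots mark an adjusted p under 0.05. The KLF5 comparisons are blue throughout, from -2.22 to -0.28, while the RUVBL1 and RUVBL2 comparisons hold both colours and CORO1A after sgCHD4 is the highest value, 2.66.

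Knockout of CHD4, the ATPase of the NuRD remodelling complex, was measured in AsPC-1 with its own controls. CORO1A rose from 11.0, 10.7, 12.7 and 11.2 TPM in sgRosa to 79.6, 86.3, 73.0 and 71.0 TPM in the libraries labelled sgCHD4 (2.66 ± 0.08 SE, adjusted p = 4.11e-10), far above every control. The 7 blood markers summed to 2.93 to 6.38 TPM with sgRosa and 3.72 to 6.09 TPM with sgCHD4, and their part in the CORO1A values was not tested. ANO1 fell from 126, 131, 134 and 129 TPM to 67.3, 51.6, 69.1 and 65.7 TPM (-1.03, adjusted p = 9.64e-07) and ALS2CL from 23.1, 23.8, 26.7 and 23.9 TPM to 13.8, 13.1, 11.9 and 14.8 TPM (-0.82, adjusted p = 6.95e-06). C1orf116 rose from 8.44, 9.12, 8.77 and 8.23 TPM to 14.4, 10.7, 14.0 and 12.6 TPM (0.53, adjusted p = 0.000915). In these 4 genes the groups did not overlap. CAVIN3, EMP1 and PLCD3 did not pass the test, so 4 of 7 changed against 50% of all genes. PLCD3, at 0.10 (adjusted p = 0.0604), did not overlap either. Knockout of SERPINB5, which encodes the serpin maspin, left limma with 0 of 7 genes called (0.0343% of all genes) and 2 of 7 at an unadjusted p under 0.05, with log2 fold changes from -0.22 to 0.14.

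The relatives of the 7 genes were counted in the same fits: 28 genes of caveolae, the PMP22 family, the delta phospholipases C, the anoctamins, the coronins, and alsin with the RAB5 GTPases, of which 21 to 24 passed the filter on low values. After KLF5 knockout 3 fell and 3 rose in AsPC-1, 5 fell and 8 rose in T3M-4, 9 fell and 1 rose in BxPC-3, and 6 fell and 1 rose in CFPAC-1. Of the relatives tested, 27.3%, 56.5%, 47.6% and 30.4% were thus called, against 27.8%, 34.6%, 34.6% and 16.2% of all genes. Their median log2 fold changes were -0.05, 0.14, -0.30 and -0.19. In the basal-like lines all 4 caveolar genes, CAV1, CAV2, CAVIN1 and CAVIN2, fell, as did CAVIN3. In AsPC-1, where CAVIN3 fell most (-1.83), 0 of the 4 fell and 1 rose. In CFPAC-1, where CAVIN3 did not pass the test, 3 of the 4 fell. CAV1, the main structural protein of caveolae, was at -1.22 (adjusted p = 8.72e-11) in T3M-4 and -1.24 (adjusted p = 4.59e-10) in BxPC-3 and did not pass in AsPC-1, -0.11 (adjusted p = 0.247). Its partner CAV2 was at -0.77 (adjusted p = 1.41e-07) and -1.16 (adjusted p = 2.44e-08) in the basal-like lines and higher in AsPC-1, 0.41 (adjusted p = 0.000339). In CFPAC-1 the falls of CAV1 and CAV2 were lost after median-of-ratios scaling. CAVIN1, the core cavin, was at -0.83 (adjusted p = 5.82e-06) in T3M-4, -0.52 (adjusted p = 2.65e-05) in BxPC-3 and -0.52 (adjusted p = 0.012) in CFPAC-1. Among coronins, CORO2A fell in AsPC-1 (-0.76, adjusted p = 2.51e-05), BxPC-3 (-0.38, adjusted p = 0.0135) and CFPAC-1 (-0.73, adjusted p = 0.0109) and rose in T3M-4 (0.45, adjusted p = 0.00641), the line in which CORO1A fell most. After sgRUVBL1, 5 relatives fell and 9 rose in AsPC-1 experiment 3, 8 and 8 in experiment 2, 5 and 10 in T3M-4, 1 and 3 in BxPC-3, and 5 and 0 in CFPAC-1, which is 63.6%, 69.6%, 65.2%, 19% and 21.7% of those tested, against the 51.9%, 55.8%, 60.5%, 16% and 43.8% of all genes given above. After sgRUVBL2 the counts were 5 and 12, 5 and 8, 1 and 2, and 1 and 0 in AsPC-1, T3M-4, BxPC-3 and CFPAC-1, or 77.3%, 56.5%, 14.3% and 4.35%, against 43.2%, 54.5%, 9.76% and 12.1% of all genes. After CB6644 they were 4 and 12 in AsPC-1, 4 and 4 in T3M-4, 4 and 15 in T84, 7 and 12 in A375, 2 and 17 in H1048, and 6 and 13 in RH30, without median-of-ratios scaling. These are 69.6%, 36.4%, 90.5%, 90.5%, 79.2% and 90.5% of the relatives tested, against 64.4%, 34.3%, 71.4%, 81.1%, 77.9% and 77.7% of all genes.

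CB6644 was compared with DMSO in AsPC-1 and T3M-4 carrying the empty vector, where DMSO is represented by 1 library for each of the 3 vectors. In AsPC-1, 2 of 7 genes fell and 1 rose (64.4% of all genes changed). ANO1 was at 90.2, 84.6 and 91.5 TPM in DMSO (empty vector, RUVBL1_A62T and RUVBL2_dF109) and at 40.4, 42.6 and 48.5 TPM in CB6644 (-1.01 ± 0.09 SE, adjusted p = 1.37e-06), far below every DMSO library. PLCD3 was at -0.26 (adjusted p = 0.0171), and -0.17 (adjusted p = 0.215) against only the DMSO library of the empty vector, and its call was also lost without the RUVBL1_A62T DMSO library or empty-vector CB6644 replicate 1 (adjusted p = 0.0646 to 0.0832). CAVIN3 was at 108, 111 and 91.6 TPM in DMSO and at 133, 143 and 133 TPM in CB6644 (0.40, adjusted p = 0.000371), without overlap, a rise that was 0.13 (adjusted p = 0.114) after median-of-ratios scaling. The median of all genes was 0.19 higher on the log2 scale in CB6644, and with scaling 3 genes were lower and 0 higher.

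In T3M-4, 3 of 7 genes fell (34.3% of all genes changed) and the DMSO libraries themselves differed between vectors. ANO1 was at 66.9, 163 and 118 TPM in DMSO and at 52.3, 39.4 and 28.5 TPM in CB6644 (-1.46, adjusted p = 0.0019). The drug libraries were all below the lowest DMSO library, which was that of the empty vector. Comparisons against that library alone have 1 library in the control arm, which is assumed to vary like the other groups. Against it, the ANO1 change was -0.77 (adjusted p = 0.0375). EMP1 was at 316, 736 and 616 TPM in DMSO and 303, 285 and 311 TPM in CB6644. Its fall of -0.80 (adjusted p = 0.0176) was lost without empty-vector CB6644 replicate 2 or the RUVBL2_dF109 DMSO library (adjusted p = 0.0593 to 0.0754) and became -0.08 (adjusted p = 0.386) against the empty-vector DMSO library alone. PLCD3 was lower against both, -0.45 (adjusted p = 0.037) and -0.71 (adjusted p = 0.0239), though the first was lost without empty-vector CB6644 replicate 2 or 3 or the empty-vector DMSO library (adjusted p = 0.0717 to 0.103). C1orf116 changed sign, from -0.58 (adjusted p = 0.16) against all 3 DMSO libraries to 0.38 (adjusted p = 0.00643) against that of the empty vector. Without empty-vector CB6644 replicate 2, 1 of 7 genes was called. After median-of-ratios scaling 5 genes were lower, with ALS2CL at -0.67 (adjusted p = 0.0369) and C1orf116 at -0.68 (adjusted p = 0.0403).

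**Figure D4:**
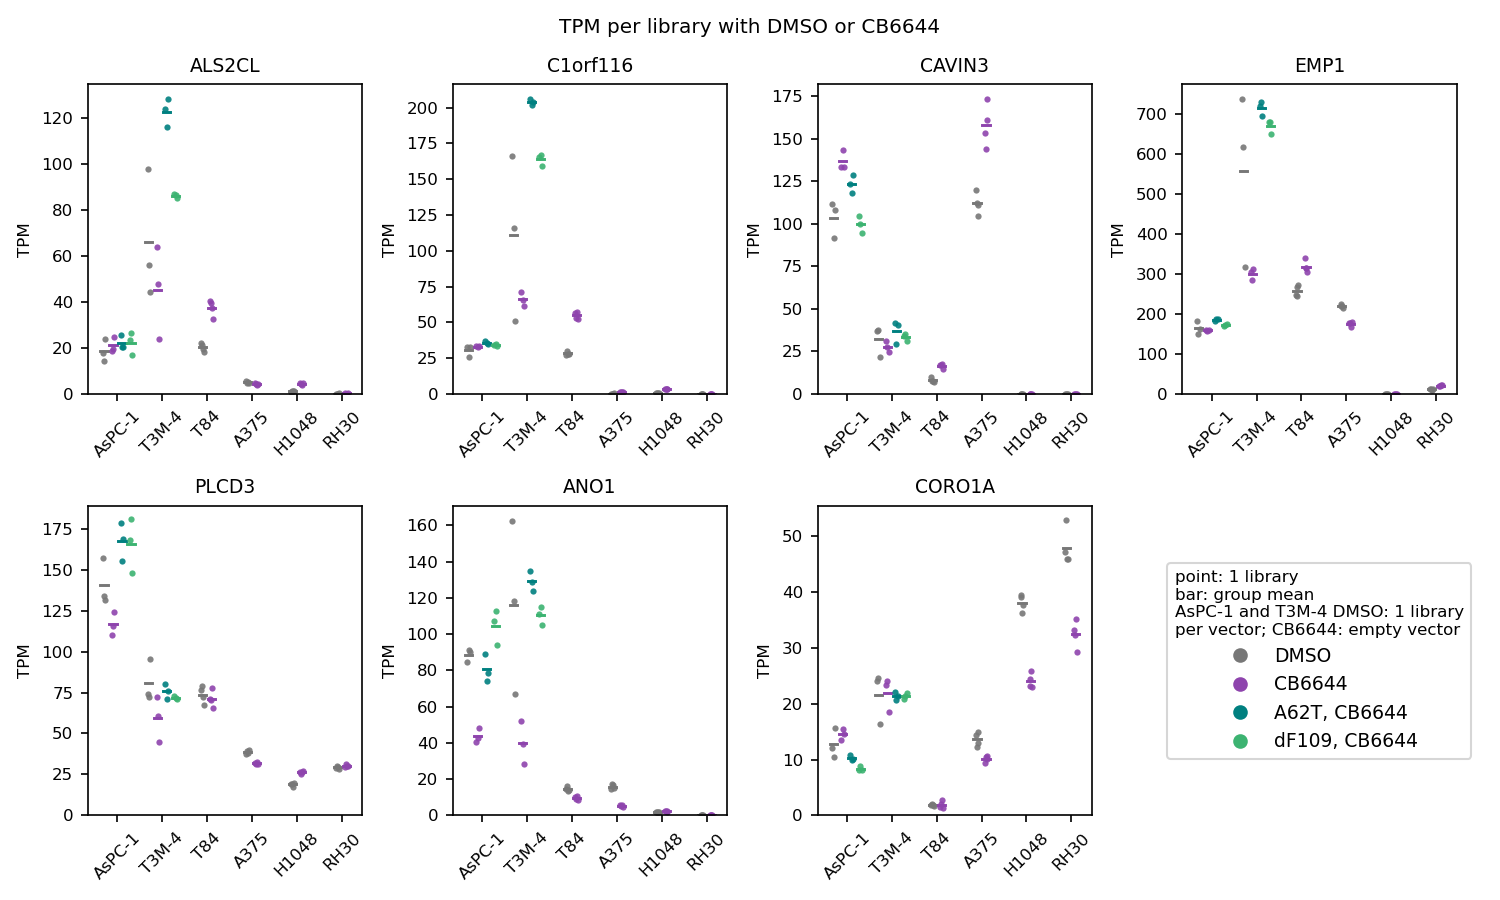
TPM (vertical axes) of each gene in each library (points) with DMSO (grey) or CB6644 (colours), with bars at group means, in AsPC-1, T3M-4, T84, A375, H1048 and RH30. In T3M-4 the grey points of EMP1, C1orf116 and ANO1 are spread over the 3 vectors, and the empty-vector DMSO library is the lowest of them.

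The resistance variants were set against the empty vector, both in CB6644. In AsPC-1, RUVBL1_A62T changed 4 of 7 genes (51.1% of all genes) and RUVBL2_dF109 4 of 7 (47.2%). ANO1 was at 89.2, 74.4 and 78.7 TPM with RUVBL1_A62T and 107, 113 and 93.9 TPM with RUVBL2_dF109, which is near or above the DMSO libraries and above all empty-vector libraries in drug (0.87, adjusted p = 8.59e-06, and 1.24, adjusted p = 8.68e-07). PLCD3 was at 0.52 (adjusted p = 0.000391) and 0.50 (adjusted p = 0.00056). CORO1A was lower with either variant, -0.46 (adjusted p = 0.00578) and -0.73 (adjusted p = 0.000309), and its DMSO libraries were also lower with RUVBL1_A62T and RUVBL2_dF109, at 12.0 and 10.4 TPM against 15.7 TPM with the empty vector. EMP1 rose with RUVBL1_A62T (0.23, adjusted p = 0.00633) and CAVIN3 was lower with RUVBL2_dF109 (-0.45, adjusted p = 0.000283). The blood marker sum was 7.90 to 9.15 TPM in CB6644 with the empty vector, 8.40 to 8.67 TPM with RUVBL1_A62T and 9.49 to 10.3 TPM with RUVBL2_dF109.

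In T3M-4, 4 of 7 genes were higher with RUVBL1_A62T (50.6% of all genes changed) and the same 4, ALS2CL, C1orf116, EMP1 and ANO1, were higher with RUVBL2_dF109 (34.6%). ANO1 was at 135, 129 and 124 TPM with RUVBL1_A62T (1.71, adjusted p = 0.000845) and 111, 115 and 105 TPM with RUVBL2_dF109 (1.48, adjusted p = 0.0044). C1orf116 was at 206, 202 and 204 TPM and 166, 167 and 159 TPM against 71.5, 65.8 and 61.7 TPM (1.61, adjusted p = 0.0019, and 1.3, adjusted p = 0.0108). For all 4 genes the variant libraries were above every empty-vector library in drug. The call of ALS2CL with RUVBL2_dF109, 1.03 (adjusted p = 0.03), was lost without empty-vector CB6644 replicate 2 or 3 or RUVBL2_dF109 CB6644 replicate 1, 2 or 3 (adjusted p = 0.0545 to 0.0907). The median of all genes was 0.27 with RUVBL1_A62T and 0.24 with RUVBL2_dF109, and after scaling CORO1A was also lower with RUVBL1_A62T, -0.31 (adjusted p = 0.0325). The same order stood in the single DMSO libraries without drug: C1orf116 was at 50.7 TPM with the empty vector, 166 TPM with RUVBL1_A62T and 116.1 TPM with RUVBL2_dF109, and ALS2CL at 44.2, 97.8 and 56.2 TPM. Whether the drug response differed between the vectors was not tested.

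Outside the pancreas, CB6644 moved the genes in both directions and 71.4% or more of all genes changed in each line. The all-gene median change, on the log2 scale, was 0.13 in T84, 0.16 in A375, 0.18 in H1048 and 0.13 in RH30. In T84 (71.4%), 4 of 7 genes rose and 1 fell. C1orf116 went from 26.9, 30.3, 28.0 and 27.9 TPM in DMSO to 56.8, 53.0, 57.1 and 52.7 TPM in CB6644 (0.93, adjusted p = 7.99e-10) and ALS2CL from 22.2, 21.2, 19.4 and 18.4 TPM to 40.3, 39.3, 37.4 and 32.6 TPM (0.85, adjusted p = 6.39e-08). The libraries in drug were all above the controls. CAVIN3 rose by 0.97 (adjusted p = 1.91e-07) and EMP1 by 0.30 (adjusted p = 2.46e-05), while ANO1 fell from 14.7, 16.2, 13.7 and 14.0 TPM to 9.96, 9.24, 10.8 and 8.40 TPM (-0.57, adjusted p = 1.36e-05). PLCD3 was at -0.05 (adjusted p = 0.45), and at -0.24 (adjusted p = 0.00126) after median-of-ratios scaling, which made 2 genes lower.

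In A375 (81.1%), 5 of the 6 genes tested fell and 1 rose, and C1orf116, with a mean under 1 TPM, was not tested. ANO1 fell most, from 14.4, 17.2, 16.6 and 15.3 TPM to 5.82, 5.07, 5.86 and 4.84 TPM (-1.40, adjusted p = 1.07e-08), without overlap. CAVIN3 rose from 120.1, 112, 104 and 111 TPM to 153, 144, 173 and 161 TPM (0.49, adjusted p = 7.23e-06). CORO1A, EMP1, PLCD3 and ALS2CL were at -0.39 (adjusted p = 0.00016), -0.33 (adjusted p = 5.36e-07), -0.27 (adjusted p = 1.27e-05) and -0.19 (adjusted p = 0.0238), the last lost without CB6644 replicate 3 or 4 or DMSO replicate 1 (adjusted p = 0.0513 to 0.0697). C1orf116 was at 0.0591, 0.0935, 0.271 and 0.352 TPM in DMSO and 1.23, 1.39, 1.51 and 1.16 TPM in drug, low values that did not overlap. The blood marker sum in A375 was 1.78 to 3.16 TPM in DMSO and 7.07 to 9.74 TPM in drug, and its part in the CORO1A values was not tested.

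In H1048 (77.9%), 3 of the 5 genes tested rose and 1 fell. ALS2CL went from 0.905, 1.25, 1.47 and 1.33 TPM to 4.76, 4.27, 3.88 and 4.54 TPM (1.26, adjusted p = 2.27e-07) and C1orf116 from 0.599, 0.812, 0.500 and 0.672 TPM to 3.33, 3.53, 3.38 and 3.59 TPM (1.44, adjusted p = 3.57e-08). Both started near 1 TPM and did not overlap. PLCD3 rose by 0.46 (adjusted p = 2.22e-06) and CORO1A fell from 39.4, 39.1, 36.3 and 37.6 TPM to 24.4, 23.2, 25.8 and 23.0 TPM (-0.64, adjusted p = 1.06e-07). In RH30 (77.7%), 3 genes were tested. EMP1 rose from 13.5, 11.7, 10.9 and 11.2 TPM to 19.0, 20.9, 21.2 and 23.1 TPM (0.78, adjusted p = 4.55e-07) and CORO1A fell from 47.2, 52.8, 45.8 and 46.0 TPM to 33.1, 32.4, 35.1 and 29.2 TPM (-0.55, adjusted p = 2.05e-06). PLCD3 was at 0.04 (adjusted p = 0.296) and at -0.12 (adjusted p = 0.00889) after median-of-ratios scaling. The other called directions in these 4 lines were the same after that scaling. ANO1 thus fell in every line in which it was above 10 TPM in DMSO (AsPC-1, T3M-4, T84 and A375), and CORO1A fell in A375, H1048 and RH30 and did not pass the test in AsPC-1, T3M-4 or T84. Against the empty-vector DMSO library alone, CORO1A in T3M-4 was at 0.40, the other way from these falls.

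The control levels differed widely between lines. They are given for 1 control group per line, sgRosa of AsPC-1 experiment 3, T3M-4 and BxPC-3 experiment 2, and SUIT-2 and CFPAC-1 experiment 1, and DMSO elsewhere, and the order holds for these groups alone. ALS2CL was highest in BxPC-3 at 144 ± 17.4 TPM (SD, n = 4), followed by T3M-4 at 73.1 ± 26.5, SUIT-2 at 53.4 ± 28.0, AsPC-1 at 22.0 ± 1.31, T84 at 20.3 ± 1.73, CFPAC-1 at 13.6 ± 7.28 and A375 at 5.09 ± 0.265. T3M-4, SUIT-2, AsPC-1, T84 and CFPAC-1 each overlapped the next line in that order, and H1048 and RH30 were at 1.24 ± 0.241 and 0.137 ± 0.0395 TPM. C1orf116 was highest in T3M-4 (111 ± 16.2) and BxPC-3 (88.9 ± 4.11), whose ranges overlapped, and below 1 TPM in H1048, A375 and RH30. It was between 17.3 and 47.9 TPM on average in CFPAC-1, T84, SUIT-2 and AsPC-1. CAVIN3 was highest in A375 (112 ± 6.44) and AsPC-1 (82.2 ± 8.64) and listed at 0 in all 4 DMSO libraries of H1048 and of RH30. AsPC-1 was at 157 and 177 TPM in experiment 1 and 131, 135, 106 and 133 TPM in experiment 2, where 1 library lay within the range of A375, and from 95.2 to 106 TPM in the sgRosa libraries of the sgCHD4 set.

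EMP1 was highest in BxPC-3 (658 ± 103) and T3M-4 (504 ± 53.4), which overlapped, then T84, A375 and AsPC-1 without overlap between neighbours, and was at 0.675 ± 0.290 TPM in H1048. PLCD3 was the evenest of the 7 genes, from 179 ± 14.5 TPM in AsPC-1 to 18.9 ± 0.981 TPM in H1048, and the first 4 lines in its order, AsPC-1, BxPC-3, T3M-4 and SUIT-2, each overlapped the next. ANO1 was highest in AsPC-1 (158 ± 5.39), above T3M-4 (104 ± 32.6) without overlap, and lowest in RH30 (0.112 ± 0.0795). CORO1A had its own order: BxPC-3 (68.7 ± 3.41), T3M-4 (60.1 ± 3.68), RH30 (48.0 ± 3.31) and H1048 (38.1 ± 1.45) did not overlap, AsPC-1 was at 10.2 ± 0.550 TPM, and SUIT-2 and T84 were lowest at 3.14 ± 1.07 and 1.93 ± 0.148 TPM. Other experiments changed these orders. EMP1 was at 794 and 793 TPM in T3M-4 experiment 1, 379.7 and 363 TPM in BxPC-3 experiment 1 and 229 to 265 TPM in AsPC-1 experiment 2. ANO1 was at 183 and 178 TPM in BxPC-3 experiment 1, above every AsPC-1 control, and CORO1A at 40.0 and 40.1 TPM in T3M-4 experiment 1, below RH30. Levels of a gene across lines come from tables that were made separately.

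**Figure D5:**
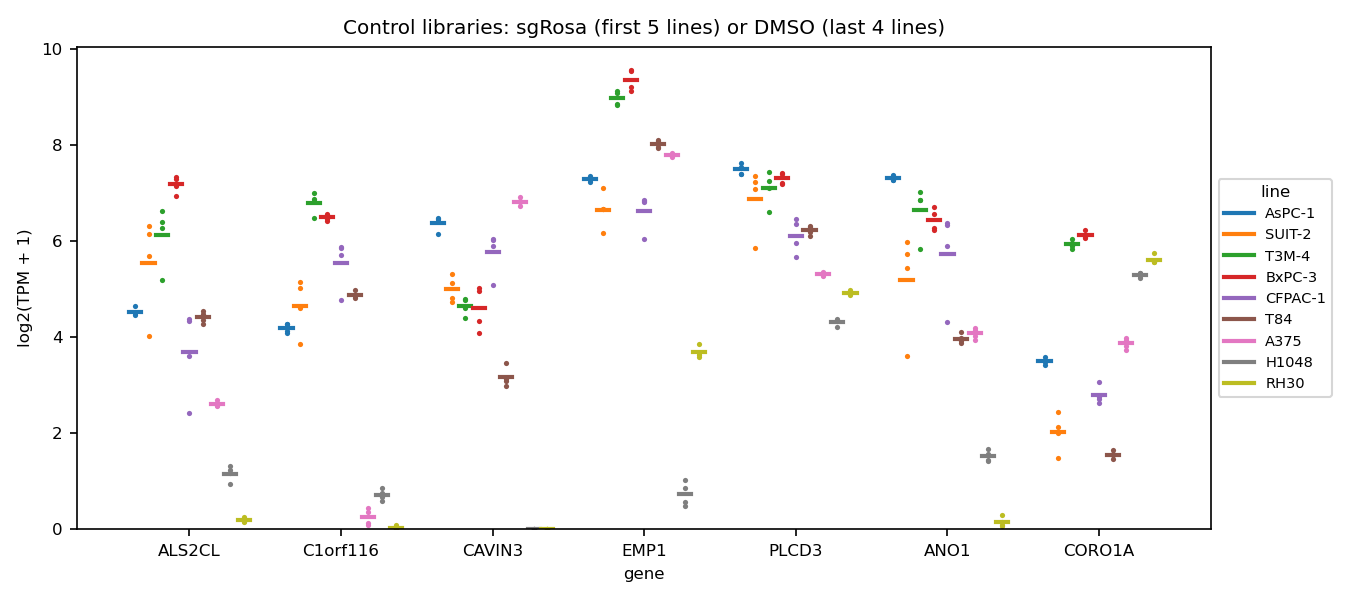
Level (log2(TPM + 1), vertical axis) of the 7 genes (horizontal axis) in the control libraries of 9 lines (points, with bars at the mean), sgRosa of 1 experiment for each of the 5 pancreatic lines and DMSO for T84, A375, H1048 and RH30. In these groups the basal-like T3M-4 and BxPC-3 are highest for ALS2CL, C1orf116, EMP1 and CORO1A, and CORO1A alone is above 5 in both H1048 and RH30.

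Across the 59 knockout libraries of AsPC-1 experiment 3, T3M-4, BxPC-3 and CFPAC-1, each gene's deviations from its own sgRosa mean were correlated (Pearson's r on log2(TPM + 1)) with those of 10940 genes, as a description. The libraries share controls within a line and 15 of them are sgKLF5. The genes most like ALS2CL were TNK2 (0.94), SEMA3B (0.94) and PTK6 (0.93), and those most like PLCD3 were EPB41L1 (0.94), PITPNM3 (0.92) and TLN2 (0.91). C1orf116 was nearest to BCL2L1 (0.92), ITPK1 (0.92) and PROSER2 (0.91), and EMP1 to LMO7 (0.88), BCL2L1 (0.87) and C1orf116 (0.87). ANO1 was nearest to PODXL (0.86), SULF2 (0.85) and EFNB1 (0.85). CAVIN3 and CORO1A had less close partners, S100A16 (0.85), CIB1 (0.78) and STN1 (0.77) for the former and a gene named Gill in the tables (0.82), KRT19 (0.81) and KRT8 (0.79) for the latter. Between the 7 genes r ran from 0.29 (CAVIN3 with CORO1A) to 0.87 (C1orf116 with EMP1), the only pair in which 1 of the 7 was among the 3 genes nearest to another.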

How the data were processed

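The deposited tables hold transcripts per 1000000 transcripts (TPM) of 183 libraries, 8 tables in all, each column summing to 1000000. The authors quantified single-end poly-A reads with kallisto on hg38, removed low-abundance transcripts at a limit not given in the sources used here, and summed transcripts to genes with tximport. Because TPM is a share, depth is unknown and no count test was possible.

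Groups came from the labels. Each of 16 fits took all libraries of a line and experiment and dropped genes whose mean was under 1 TPM. It used log2(TPM + 1) in limma 3.58.1 (R 4.3.3, empirical Bayes with trend) with Benjamini-Hochberg adjustment over all genes tested, and a call is an adjusted p under 0.05. Fold changes are on the log2(TPM + 1) scale, which understates low genes. The test was checked on simulated data. Tables and figures were made with Python 3.11.15, pandas 2.3.3, numpy 2.4.6 and matplotlib 3.10.9.

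The 7 genes were named in every comparison. Relatives were named when they passed the test in at least 3 of the 4 later KLF5 fits, were the only tested relative, or belong to the 4 caveolar genes. The genes and lists were chosen with earlier results of these data known. Replicate numbers were checked for pairing: in 0 of 39 comparisons did every same-numbered pair deviate together at r over 0.1. The libraries were therefore treated as unpaired. This rule asks for every pair, so it cannot show that they were unpaired. Alternatives were another pseudocount, other filters, median-of-ratios scaling, a replicate block, fits restricted to the groups compared, the empty-vector DMSO library alone, and each library left out.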

Additional observations from a re-analysis of the deposited data

Results flagged for a closer look

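Of 197 sets of values tested, each of 1 gene in 1 group of 4 to 10 libraries, 10 held a library far from the others by Dixon's ratio, and chance gives about 1 in 20. CAVIN3 was 41.2 TPM in sgKLF5 replicate 6 of AsPC-1 experiment 1, where the next library was at 24.0 TPM, and CORO1A was 7.57 TPM in replicate 5 of that group, where the next was at 6.57 TPM. CAVIN3 was 106 TPM in sgRosa replicate 3 of AsPC-1 experiment 2, below the next at 131 TPM, and 15.7 TPM in sgKLF5 replicate 3 of T3M-4 experiment 2, above the next at 12.3 TPM. PLCD3 and ANO1 were 12.1 and 5.29 TPM in sgKLF5 replicate 2 of T3M-4 experiment 1, against 31.5 and 18.8 TPM in the nearest libraries. EMP1 was 64.6 TPM in sgRosa replicate 2 of CFPAC-1, where the nearest was at 112 TPM. C1orf116 and EMP1 were 11.1 and 54.6 TPM in sgKLF5 replicate 4 of SUIT-2, above the nearest at 8.66 and 50.5 TPM. ALS2CL was 5.48 TPM in DMSO replicate 1 of A375, above the nearest at 5.01 TPM.

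In 12 cases every library moved one way in one line and the opposite way in another under the same treatment. The difference between the lines was not tested in any of them. After sgRUVBL1, ALS2CL differed by 1.23 on the log2 scale between T3M-4 (1.00) and AsPC-1 experiment 3 (-0.22), and EMP1 by 0.644 between T3M-4 (0.49) and AsPC-1 experiment 2 (-0.16). After sgCDK1, ALS2CL differed by 1.17 between CFPAC-1 (0.81) and AsPC-1 (-0.36), EMP1 by 1.07 between T3M-4 (0.38) and AsPC-1 (-0.69), and CORO1A by 0.656 between BxPC-3 (0.46) and T3M-4 (-0.20). After sgRpa3, EMP1 differed by 0.866 between BxPC-3 (0.30) and T3M-4 (-0.57), ANO1 by 0.751 between AsPC-1 (0.30) and BxPC-3 (-0.45), and CORO1A by 1.36 between CFPAC-1 (1.01) and T3M-4 (-0.35). With CB6644, ALS2CL differed by 1.45 between H1048 (1.26) and A375 (-0.19), EMP1 by 1.58 between RH30 (0.78) and T3M-4 (-0.80), and PLCD3 by 0.912 between H1048 (0.46) and T3M-4 (-0.45). The T3M-4 values are against the DMSO libraries of all vectors together. Against the empty-vector DMSO library alone, EMP1 in T3M-4 was at -0.08 and PLCD3 at -0.71. With RUVBL2_dF109 against the empty vector in CB6644, CAVIN3 differed by 0.719 between T3M-4 (0.27) and AsPC-1 (-0.45).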

How the results depend on the processing

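Of 154 called log2 fold changes none changed sign under any alternative run. The call was lost in 12 of 154 after median-of-ratios scaling, 7 of 154 without a filter on low values, 10 of 133 with only the groups compared, 1 of 154 with a pseudocount of 0.1, 2 of 6 with the empty-vector DMSO library alone, 0 of 151 at a mean of at least 5 TPM, and 74 of 1132 times when a library was left out. Of 1603 values not called, 80 became called and 2 of the opposite sign became called: C1orf116 in T3M-4 with CB6644 at 0.38 against the empty-vector DMSO library alone, and PLCD3 in RH30 at -0.12 after median-of-ratios scaling. The experiment 1 difference of CORO1A in SUIT-2, a description, ran from -0.22 to 0.10 when 1 library was left out, and was above 0, at 0.06, 0.03 and 0.10, without sgKLF5 replicate 2, sgKLF5 replicate 3 and sgRosa replicate 2. EMP1 after sgKLF5 in CFPAC-1 had an adjusted p of 0.0529 (limma) with only the groups compared.

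The number of the 7 genes called moved by over 1.5 times in the following cases. After median-of-ratios scaling it went from 1 to 2 for sgRUVBL1 in CFPAC-1, from 3 to 1 for sgCDK1 in T3M-4 and from 3 to 5 for CB6644 in T3M-4. With no filter it went from 1 to 0 for sgRUVBL2 in BxPC-3 and from 2 to 1 for sgCDK1 in AsPC-1. With only the groups compared it went from 1 to 0 for sgRUVBL2 in BxPC-3, from 2 to 4 and from 3 to 0 for sgCDK1 in AsPC-1 and T3M-4, from 0 to 2 for sgRpa3 in AsPC-1 and from 3 to 1 for CB6644 in T3M-4. At a mean of at least 5 TPM it went from 4 to 2 for CB6644 in H1048, where fewer genes were tested. Leaving out 1 library gave 1 to 4 calls for sgRUVBL1 in CFPAC-1, 0 to 3 for sgRUVBL2 in BxPC-3, 0 to 2 for sgRUVBL2 in CFPAC-1, 1 to 2, 0 to 3 and 0 to 1 for sgCDK1 in these lines in the order AsPC-1, T3M-4, BxPC-3, 1 to 3 and 0 to 3 for sgRpa3 in BxPC-3 and CFPAC-1, and 1 to 4 for CB6644 in T3M-4. After sgKLF5 it gave 6 to 7 in AsPC-1, 7 to 7 in T3M-4, 5 to 6 in BxPC-3 and 4 to 6 in CFPAC-1. Where this left 1 library in a group, that library is assumed to vary like the other groups. The cause of these changes was not tested.

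The libraries share a replicate number only, with correlations between same-numbered libraries of -0.46 to 0.36. With the replicate number as a block, 4 of 148 calls were lost, and the number of genes called became 2 for sgRUVBL1 in CFPAC-1, 2 for sgRUVBL2 in BxPC-3, 1 for sgRUVBL2 in CFPAC-1, 1 and 1 for sgCDK1 in AsPC-1 and T3M-4, and 5 for sgRpa3 in BxPC-3. No block could be fitted for CB6644 against DMSO with the empty vector, where the DMSO libraries all carry replicate number 1. TPM tables give no depth, so no counting error can be given, which limits the values near or under 1 TPM most.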
